A study of Mus musculus with 3 samples.

Results

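The genes described here are the 4 suppressors of cytokine signalling Socs1, Socs2, Socs3 and Cish, the anti-inflammatory cytokine gene Il10, and the genes of both chains of its receptor, Il10ra and Il10rb. They were picked by name, 7 of 55536 annotated genes, and all 7 were found in the gene tables of the 3 libraries. The libraries were total RNA of the chromatin fraction, sequenced after ribosomal RNA was depleted, from primary bone marrow-derived macrophages of C57BL/6J mice. All 3 belonged to 1 group, whose cells were held in Lipid A at 100 ng/ml for 12 h, kept free of it for 12 h after a wash, and given 100 ng/ml again for 20 min. Lipid A is the part of bacterial lipopolysaccharide that TLR4 recognises. Cells without either exposure were not analysed here, so no value is an effect of Lipid A. The labels number the libraries as biological replicates but give them 1 shared donor entry, and sex and age were not collected, and the spread between them may therefore be partly technical.

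SOCS proteins are made in response to cytokines, largely through STAT transcription factors, and switch the same signals off. They bind phosphorylated receptors or JAK kinases through an SH2 domain, and their SOCS box recruits a ubiquitin ligase built on elongins B and C and cullin 5. IL-10, which macrophages release late in the response to bacterial products, binds a receptor of IL10RA and IL10RB, activates JAK1, TYK2 and STAT3, and dampens inflammatory gene expression. RNA held on chromatin is largely nascent or not yet fully spliced, and its level is not that of the mature mRNA or the protein.

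The libraries held 13953780, 24222661 and 16571228 expected counts in replicates 1, 2 and 3, made from 1 µg, 250 ng and 500 ng of RNA; the amount of RNA and the replicate number cannot be told apart. All 7 macrophage marker genes reached 1 TPM (a level scaled for transcript length and library size) in every library, with summed levels of 982, 823 and 903 TPM. The markers of T cells, B cells, neutrophils and mast cells or basophils summed to at most 1.46 TPM per list and library, and 3 mast cell or basophil markers (Mcpt8, Cpa3 and Mcpt4) and the neutrophil marker Cxcr2 were at 0 counts. In the second transcript table deposited for each library these sums were higher, at 17.3, 15.9 and 19.6 TPM for T cells, most of it on Cd3d at 13.4, 13.0 and 15.7 TPM, and 8.26, 4.39 and 7.3 TPM for neutrophils, most of it on Cxcr2 at 5.68, 2.61 and 4.98 TPM. Levels below are those of the gene table unless the second table is named. Of the dendritic cell markers 1 of 4 reached 1 TPM in every library, with a summed level of 1.45 to 1.90 TPM. In bulk RNA, fewer cells with a transcript and less of it per cell cannot be told apart.

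In the gene table the receptor chains stood at the top of the 7 genes and Socs2 at the bottom. In replicates 1 and 2 the order of TPM was Il10ra, Il10rb, Socs3, Il10, Socs1, Cish and Socs2. In replicate 3 Cish stood above Socs1 and the order was otherwise the same. Of the 7 genes 5 reached 1 TPM in every library, beside 45.2% of 22028 protein-coding genes. Between neighbours in this order the library ranges overlapped, except those of Cish and Socs2. The second table placed Il10rb above Il10ra and Socs2 above Cish in every library, Il10 above Socs3 in replicate 2, and Socs1 below Socs2 and Cish in replicate 3.

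**Figure D1:**
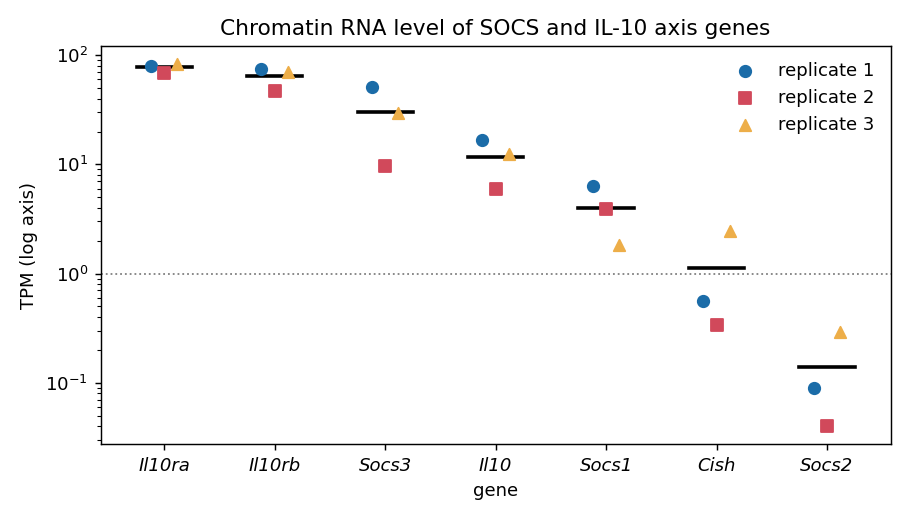
TPM (log axis) of each gene in the 3 libraries, with the mean as a horizontal bar and a dotted line at 1 TPM. Il10ra and Il10rb lie between 47.0 and 83.0 TPM in every library, and Socs2 lies under 1 TPM in all of them.

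Il10 encodes the ligand and lies at chr1:131019845-131024974 on the plus strand of mm10 (ENSMUSG00000016529.5). Its level was 16.8, 5.94 and 12.5 TPM in replicates 1, 2 and 3, from 216, 165 and 190 expected counts, with a mean of 11.8 ± 5.49 TPM (SD, n = 3). Replicate 2 was the low library. Il10 had a higher mean TPM than 77.4% of protein-coding genes. It has 1 annotated transcript, of 5 exons, so no share between isoforms arises.

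The other ligands of the IL-10 family were close to undetected in the same libraries. Of Il19, Il20, Il22, Il24, Ifnl2 and Ifnl3, 5 had 0 counts in all libraries, and Il19 had 1 count, in replicate 2. At this depth a count of 0 allows up to 3 counts, which is 0.220, 0.124 and 0.182 CPM (counts scaled to library size) in replicates 1, 2 and 3. Il19 is also the nearest protein-coding gene on 1 side of Il10, 79729 bases away. On the other side, 28725 bases away, lies Mapkapk2, which encodes the kinase MK2 downstream of p38. Mapkapk2 had 33.3, 15.0 and 24.7 TPM, and like Il10 was highest in replicate 1 and lowest in replicate 2.

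Genes known to act on Il10 transcription were all present. The list of 14 had 14 genes at or above 1 TPM in every library, beside 45.2% of protein-coding genes. Its median was 11.4 TPM, beside 0.677 TPM over all protein-coding genes. All 14 averaged 50 counts or more, however, and the 9540 protein-coding genes that did so had a median of 12.5 TPM. Against these the list median was slightly lower. Map3k8, the kinase TPL2 that feeds ERK signalling, was the highest of the 14 at 114 ± 35.5 TPM (SD, n = 3). Maf, a transcription factor known to bind the Il10 locus, averaged 87.2 ± 12.4 TPM. Dusp1, a phosphatase that turns off p38 and is known to limit Il10, had 95.2, 40.8 and 137 TPM and was the 1 gene of the list with a fold of at least 2 between its highest and lowest library, 1 of 14 beside 6.06% of genes tested. Creb1, a transcription factor for Il10, averaged 49.4 ± 13.0 TPM, while Rps6ka5, the gene of an MSK kinase that phosphorylates it, was lower at 4.05 ± 0.54 TPM.

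Il10ra encodes the chain that binds IL-10 with high affinity and carries JAK1 (ENSMUSG00000032089.16, chr9:45253837-45269149, minus strand). Its level was 80.2, 69.1 and 83.0 TPM in replicates 1, 2 and 3, with a mean of 77.5 ± 7.36 TPM from 3088, 5803 and 3811 expected counts, above 96.5% of protein-coding genes. Il10rb encodes the shared chain that carries TYK2 and also serves IL-22 and type III interferons (ENSMUSG00000022969.13, chr16:91406164-91425834, plus strand). It had 75.4, 47.0 and 70.0 TPM, with a mean of 64.1 ± 15.1 TPM from 1590, 2036 and 1726 expected counts. The ratio of Il10ra to Il10rb was 1.06, 1.47 and 1.19 within the libraries, so Il10ra was the higher chain in each, by little in replicate 1.

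That order depended on the table. In the second table Il10rb had 120, 74.3 and 104 TPM and Il10ra 79.1, 64.7 and 80.9 TPM. The ratio of Il10ra to Il10rb was there 0.657, 0.871 and 0.777, so Il10rb was the higher chain in each library. Counting only the main protein-coding model of each gene, Il10ra-201 was above Il10rb-201 in every library of both tables, with ratios of 4.39, 2.94 and 2.78 in the first and 3.93, 4.23 and 4.04 in the second. The annotation is unlike for the 2 genes. At least 100 intron bases are in 3 of 5 models of Il10rb and in 0 of 3 of Il10ra. The coding models are thus not like parts of their genes, and the share of annotation in this ratio was not tested. Il10ra exceeded Il10 by 4.77, 11.6 and 6.62 times in TPM, most in replicate 2, where Il10 was low, and by 3.58, 7.21 and 4.22 times in the second table.

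Much of the Il10rb signal was assigned to transcript models that keep intron sequence. Il10rb-205, a model of the nonsense-mediated decay class with 882 bases inside the introns of Il10rb-201, held 39.6, 23.6 and 30.9% of the gene's TPM. Il10rb-204, of the retained-intron class with 832 such bases, held 31.4, 37.4 and 28.0%. The protein-coding model Il10rb-201 held 21.9, 37.0 and 36.6%. Over the 3 models of 5 with at least 100 bases in those introns, the share was 68.2 ± 8.59% (SD, n = 3) in the first table and 79.1 ± 1.96% in the second. The tables differed on Il10rb-202, a short processed transcript, which held 2.00 to 7.12% in the first and 28.7 to 32.4% in the second.

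Il10ra was assigned mainly to its full protein-coding model. Unlike Il10rb, it has no annotated model with at least 100 intron bases, so its shares cannot be set against those of Il10rb. Il10ra-201 held 90.5, 73.7 and 85.8% of the TPM of Il10ra in replicates 1, 2 and 3. The model Il10ra-203, of the nonsense-mediated decay class, held 9.54, 25.9 and 11.9%, most in replicate 2, whereas in the second table its share was 23.5, 22.6 and 18.8%. It lacks exon 2 of Il10ra-201, 121 bases that leave a remainder of 1 when divided by 3, so that skipping the exon shifts the reading frame. The sequence of this skipped exon, from the genome and annotation of GENCODE M21 (GRCm38, chr9:45267100-45267220, minus strand), is shown because it is what separates the models; no letters are in capitals.

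Il10ra exon 2: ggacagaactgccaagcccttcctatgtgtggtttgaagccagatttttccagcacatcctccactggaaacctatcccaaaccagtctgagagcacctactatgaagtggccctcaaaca

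**Figure D2:**
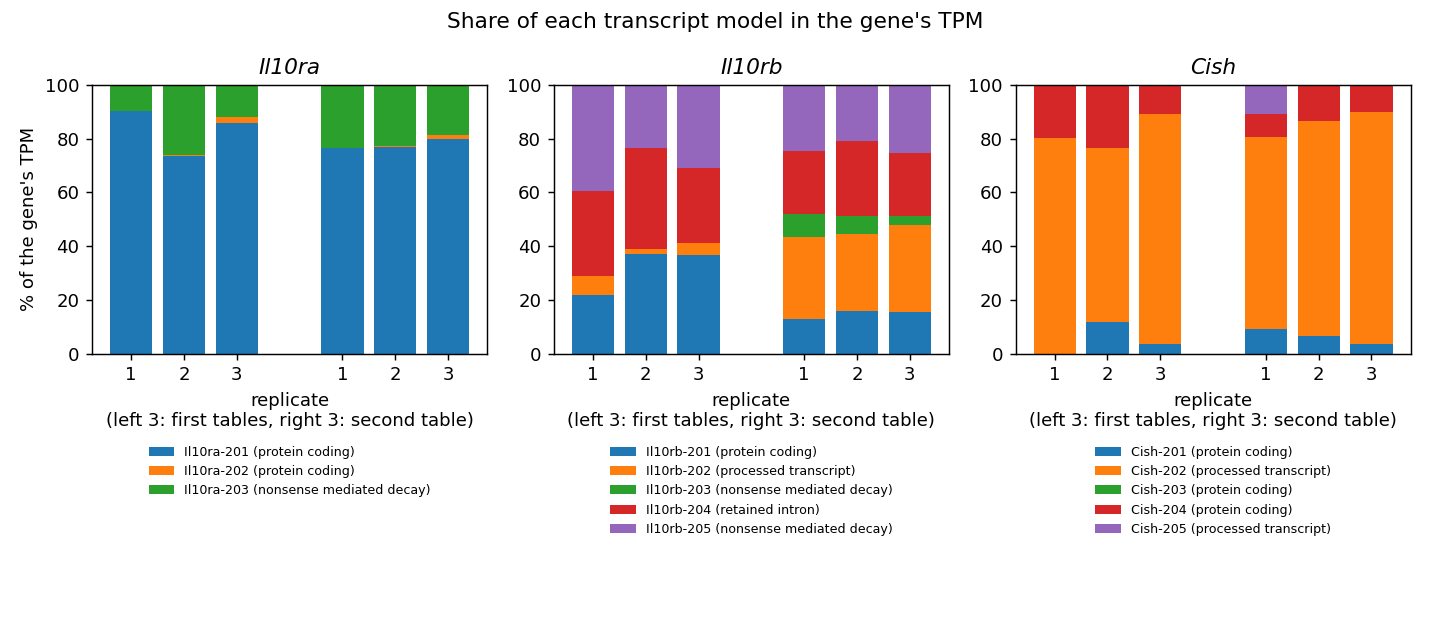
Share of the gene's TPM (%) assigned to each annotated transcript model of Il10ra, Il10rb and Cish in replicates 1, 2 and 3, from the first tables (left bars) and the second table (right bars). Il10ra-201 leads Il10ra, models with intron sequence lead Il10rb, and Cish-202 leads Cish in both tables.

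Other annotated features inside Il10ra also carried signal. Gm20612, a processed pseudogene on the opposite strand between exons 5 and 6 (chr9:45261055-45261290), had 95.2, 106 and 145 TPM from 53, 102 and 76 expected counts. Mir7086, a microRNA gene that adjoins exon 3 on the intron 2 side (chr9:45266643-45266707, minus strand), was listed at 0 in the gene table and at 113, 81.1 and 120 TPM in the second, from 31, 52 and 41 estimated counts. Whether counting used strand is not given in the sources used here, and reads of these short features cannot be told apart from intron RNA of Il10ra. The flanking genes were low: BC049352 averaged 2.54 ± 0.26 TPM, and Tmprss13 had 1 count in replicate 2 and 0 in the others.

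Il10rb sits among interferon receptor genes. Ifnar2, which encodes a type I interferon receptor chain, ends 574 bases before it and had 59.2, 44.8 and 49.9 TPM. Ifnar1, which encodes the partner chain, lies on the other side and had 83.0, 52.9 and 64.4 TPM. In log2 CPM, where Il10rb was highest in replicate 1 and lowest in replicate 2, both of them were lowest in replicate 3. Gm21970, a gene model that overlaps Il10rb and reaches into Ifnar2, had 1.64 expected counts in replicate 2 and 0 in the others.

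The kinases and the STAT that IL10RA and IL10RB mainly use were abundant. Stat3, the main STAT of IL-10 signalling, averaged 69.6 ± 8.32 TPM in the gene table and 138 ± 17.8 TPM in the second, where it was above both receptor chains. Tyk2 averaged 92.7 ± 19.9 TPM and Jak1 34.4 ± 2.78 TPM, with 71.9 ± 10.8 TPM for Jak1 in the second table. Among the remaining JAK and STAT genes Stat2 was the highest at 615 ± 155 TPM and Stat4 the lowest at 0.42 ± 0.19 TPM.

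The other receptor chains of the family were mostly not detectable at this depth in the gene table. Of Il22ra1, Il22ra2, Il20ra, Il20rb and Ifnlr1, 3 had 0 counts in all libraries. Il20rb was the exception, with 4.15, 4.02 and 3.97 TPM. Ifnlr1, the partner of IL10RB for type III interferons, had 1, 1 and 2 counts, and Il22ra1, its partner for IL-22, had 0. The second table gave Ifnlr1 0.897, 0.998 and 1.22 TPM.

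Socs3 was the highest of the SOCS genes in the gene table. It encodes a protein that binds gp130 and restrains IL-6 signalling, and it is a well-known target of STAT3 in macrophages (ENSMUSG00000053113.3, chr11:117966079-117970047, minus strand). Its level was 51.6, 9.65 and 29.4 TPM in replicates 1, 2 and 3, from 1419, 581 and 958 expected counts, with a mean of 30.2 ± 21.0 TPM. Replicate 1 was highest and replicate 2 lowest, and the mean was 19.5 TPM without replicate 1. The single protein-coding model of Socs3 held 99.6 ± 0.63% of the gene's TPM. Its nearest neighbour Pgs1, 16244 bases away, had 48.6, 38.6 and 36.7 TPM and so a narrower range than Socs3.

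Socs1 encodes the member that blocks JAK catalytic activity directly and is the main brake on interferon signalling (ENSMUSG00000038037.5, chr16:10782240-10785536, minus strand). It had 6.35, 3.87 and 1.84 TPM, from 195, 259 and 68 expected counts, with a mean of 4.02 ± 2.26 TPM. Replicate 3 was lowest, unlike for Socs3. The ratio of Socs3 to Socs1 was 8.13, 2.49 and 16.0 within the libraries, and 7.79, 2.53 and 16.5 in the second table. Socs3 was thus above Socs1 in every library, by amounts that differed between them. The 2 protein-coding models of Socs1 were split differently by the tables, with the shorter at 53.8 to 76.9% in the first and 0 to 35.4% in the second, so no isoform share is drawn from them. Clec16a, the neighbour on 1 side, averaged 18.2 ± 0.81 TPM, and Tnp2, 2399 bases away on the other, had 1 count in replicate 2 and 0 in the others.

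Cish encodes CIS, which acts on receptors that use STAT5 (ENSMUSG00000032578.7, chr9:107296026-107302784, plus strand). It had 0.56, 0.34 and 2.44 TPM in replicates 1, 2 and 3, with a mean of 1.11 ± 1.15 TPM from 27, 33 and 145 expected counts. Replicate 3 stood apart, and the mean was 0.45 TPM without it. In CPM the 95% Poisson intervals, which cover counting error only, were 1.31 to 2.89 in replicate 1, 0.942 to 1.92 in replicate 2 and 7.41 to 10.3 in replicate 3. The interval of replicate 3 did not overlap the others.

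Most Cish signal was assigned to a model that reads into intron 1. Cish-202, a processed transcript of 4697 bases, has 2772 bases inside the introns of the coding model Cish-201 and begins with an exon of 2872 bases. It held 80.4, 64.7 and 85.7% of the TPM of Cish in the first table and 71.7, 80.1 and 86.4% in the second. The 3 protein-coding models together held 19.6, 35.3 and 14.3% in the first table and 17.4, 19.9 and 13.3% in the second. Gm17041, an annotated antisense gene inside Cish, had 0 counts in all libraries. The nearest protein-coding genes, Mapkapk3 and Hemk1, averaged 35.1 ± 10.1 and 14.4 ± 3.78 TPM.

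Socs2, a regulator of growth hormone signalling, was at the limit of detection in the gene table (ENSMUSG00000020027.18, chr10:95385362-95417180, minus strand). It had 2, 2 and 4 expected counts, or 0.09, 0.04 and 0.29 TPM. Its Poisson intervals were 0.0178 to 0.531, 0.0100 to 0.300 and 0.0660 to 0.620 CPM and overlapped throughout. Its nearest protein-coding genes, Cradd and Mrpl42, averaged 5.09 ± 0.96 and 6.71 ± 1.10 TPM. In the second table it had 4.67, 2.24 and 3.37 TPM from 139, 168 and 139 estimated counts, of which 31.5, 38.7 and 37.2% of the TPM was on the retained-intron model Socs2-206. For no other of the 7 genes did the estimated counts of the second table exceed those of the first by more than 2.53 times, whereas for Socs2 they did by 34.7 to 83.8 times. The ratio of Cish to Socs2 was accordingly 6.22, 8.50 and 8.41 in the first table and 0.146, 0.149 and 0.620 in the second, so which of them was higher depended on the table.

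Promoter sequence was at hand for 3 of the 7 genes, Socs1, Socs3 and Cish, in RefSeq windows on GRCm38.p6 that run from 250 bases before to 50 after the start. They are shown because SOCS genes are known targets of STAT factors. In GENCODE M21 the Socs3 window lies before its main coding model but inside the gene span given above, because other models begin farther upstream. The Cish stretch lies within exon 1 of the coding model Cish-201. Capitals mark matches to TTCNNNGAA, the palindromic core of STAT sites, in Socs3 and Cish, and to GAAA, any 2 bases, GAAA (or, on the other strand, TTTC, any 2 bases, TTTC), the core of interferon-stimulated response elements, in Socs1. Of 32851 windows of 300 bases, 8.30% held the STAT core and 3.44% the interferon core on either strand. For Socs1 and Socs3 the 250 bases before the start are given (chr16:10785537-10785786 and chr11:117969367-117969616, both minus strand), and for Cish 30 bases around its matches (chr9:107296654-107296683, plus strand).

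Socs1 window: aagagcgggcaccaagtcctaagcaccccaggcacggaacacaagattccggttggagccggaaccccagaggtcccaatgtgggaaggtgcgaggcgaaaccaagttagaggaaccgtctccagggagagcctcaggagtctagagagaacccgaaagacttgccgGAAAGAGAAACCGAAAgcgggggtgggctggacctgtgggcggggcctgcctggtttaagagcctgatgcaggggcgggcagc

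Socs3 window: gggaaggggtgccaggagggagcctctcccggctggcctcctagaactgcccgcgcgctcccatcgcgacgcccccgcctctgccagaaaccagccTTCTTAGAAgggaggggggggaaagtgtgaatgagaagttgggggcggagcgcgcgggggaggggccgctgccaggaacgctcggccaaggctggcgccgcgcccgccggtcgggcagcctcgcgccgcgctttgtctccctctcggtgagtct

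Cish stretch: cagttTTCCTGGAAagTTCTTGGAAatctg

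The Socs1 window held a pair of overlapping interferon cores, GAAAGAGAAA and GAAACCGAAA, at positions -83 to -74 and -77 to -68 relative to the start, and 0.225% of windows held 2 or more. The Cish window held a pair of STAT cores, TTCCTGGAA and TTCTTGGAA, at the RefSeq start itself and 11 bases after it, and 0.457% of windows held 2 or more. The Socs3 window held 1 STAT core, TTCTTAGAA, at positions -154 to -146. Both cores were looked for in all windows. The Socs1 window held no STAT core, and the Socs3 and Cish windows held no interferon core. A match describes letters only, and factor binding was not measured.

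The genes also differed in how much they varied between libraries. For this, counts were scaled by the TMM method to log2 CPM with a prior count of 2, and the fold is the highest library over the lowest. The fold was 6.01 for Cish, 4.11 for Socs3, 3.26 for Socs1 and 2.19 for Il10, against 1.32 for Il10rb and 1.11 for Il10ra. With Socs2 below the minimum mean of 50 counts, 4 of 6 genes reached a fold of 2, beside 6.06% of 9540 protein-coding genes tested. The median fold of these was 1.29, and the folds of Cish, Socs3, Socs1 and Il10 exceeded those of 99.8, 99.5, 99.0 and 95.7% of them.

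These folds depended on single libraries. Without replicate 3 the fold fell to 1.35 for Cish and to 1.27 for Socs1. For Socs3 it fell to 1.72 without replicate 2 and to 2.40 without replicate 1. For Il10 it fell to 1.31 without replicate 2 and to 1.67 without replicate 1, both under 2. Replicate 3 was thus the high library for Cish and the low one for Socs1, and replicate 2 the low one for Socs3 and Il10. The rank of Cish also depended on the scale: in log2(TPM + 1) the fold was 2.57 for Cish, 4.94 for Socs3, 2.59 for Socs1 and 2.57 for Il10, a scale that compresses low levels.

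**Figure D3:**
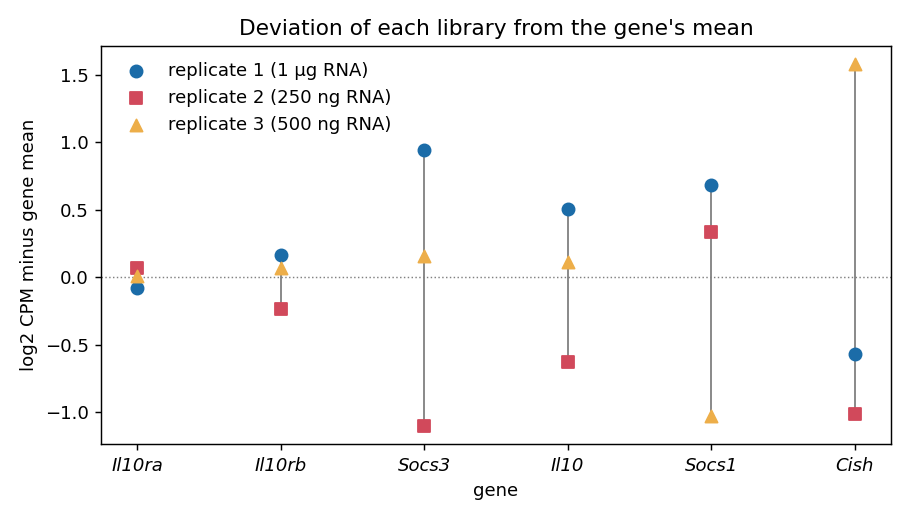
Log2 CPM of each library minus the gene's mean over the 3 libraries, for the 6 genes above the count minimum; the grey line spans the lowest to the highest library. Cish and Socs1 lie at opposite ends in replicate 3, Socs3 and Il10 are lowest in replicate 2, and Il10ra stays near 0.

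In log2 CPM, 4 of 6 genes (Socs1, Socs3, Il10 and Il10rb) were highest in replicate 1, beside 32.1% of the 9540 genes. The same number, Socs3, Cish, Il10 and Il10rb, were lowest in replicate 2, beside 33.9%. Socs3, Il10 and Il10rb did both, 3 of 6, beside 20.1%. Il10ra was the 1 gene highest in replicate 2, beside 39.6%, and Cish the 1 highest in replicate 3, beside 28.3%. On the TPM scale the background itself leaned this way: replicate 1 exceeded replicate 2 by a median of 0.29 in log2(TPM + 1) over these genes, while the same median was -0.04 in log2 CPM by TMM. In log2(TPM + 1), replicate 1 was the highest library for 4 of the 6, beside 51.4% of genes, and replicate 2 the lowest for 5, beside 70.7%. Starting amount, which was largest in replicate 1 and smallest in replicate 2, moved with this order. Total expected counts ran the other way, lowest in replicate 1 and highest in replicate 2. The part of either was not tested, and they cannot be told apart.

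Genes with the most similar pattern were found by the distance of centred log2 CPM over the 3 libraries, among 9540 genes. For Socs3 they were Plk2, Marcksl1 and Pet100, at distances of 0.12, 0.15 and 0.16 log2 units. Plk2, a polo-like kinase gene, had 154, 28.6 and 89.5 TPM in replicates 1, 2 and 3. For Cish they were Cd14, Irs2 and Fosl2, at larger distances of 0.36, 0.42 and 0.48. Cd14, the lipopolysaccharide co-receptor of macrophages, had 37.8, 22.8 and 116 TPM, and Fosl2, an AP-1 subunit gene, had 1.84, 1.76 and 10.6 TPM. For Socs1 they were C4b, Nes and Clic5, at 0.08, 0.12 and 0.16.

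Il10 was nearest to Ifitm3, Cblb and Tmem176b, at distances of 0.01, 0.03 and 0.03. Cblb, an E3 ubiquitin ligase gene, had 91.0, 32.8 and 66.2 TPM. Within 0.1 log2 units Socs3 and Cish had 0 genes, Socs1 had 1 and Il10 had 17. For the flat patterns of Il10rb and Il10ra the same distance took in 396 and 1060 genes, led by Lin52, Fbxo8 and Sat1 for Il10rb and by Ddx52, Mgat5 and Dhx15 for Il10ra. Only 6.06% of genes tested had a fold of 2 or more, so few could lie near a gene with a large fold. The distances also make no allowance for counting error. Cish had 27 and 33 counts in replicates 1 and 2, and Tmem176b and Pet100 averaged 56 and 60 counts. Neither the ranks nor these numbers of near genes show that a pattern is particular to a gene. Among the pairs of the 6 genes above the count minimum, Il10ra and Il10rb were nearest at 0.40. Socs3 and Il10 were 0.64 apart, and Socs1 and Cish were farthest at 3.19. The small distance between the receptor chains does not mean that they varied together. Both had small folds, 1.11 for Il10ra and 1.32 for Il10rb, but their libraries stood in reverse order. Across replicates 1, 2 and 3, log2 CPM was 7.78, 7.93 and 7.87 for Il10ra, against 6.83, 6.42 and 6.73 for Il10rb.

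The remaining SOCS genes, Socs4 to Socs7, all reached 1 TPM in every library, 4 of 4 beside 45.2% of protein-coding genes, and 0 of 4 had a fold of 2, beside 6.06% of genes tested. Socs4 was the highest at 13.0 ± 3.66 TPM and Socs7 the lowest at 5.50 ± 0.45 TPM. In both tables all 4 had a higher mean than Socs1, Cish and Socs2, and a lower one than Socs3. Single libraries differed: in replicate 1 of the gene table Socs1, at 6.35 TPM, was above Socs7 at 6.02 TPM. In replicate 2 of the second table, however, Socs3 at 7.77 TPM was below Socs6 at 18.5, Socs4 at 8.06 and Socs7 at 7.80 TPM. Only Socs5, at 7.75 TPM, was lower there. In the gene table Socs3 and Socs6 were close in replicate 2, at 9.65 and 9.25 TPM. Of the ubiquitin ligase partners of the SOCS box, Eloc, elongin C, was highest at 21.2 ± 2.66 TPM, with Cul5 at 15.5 ± 3.05 TPM, Elob, elongin B, at 6.55 ± 1.60 TPM and the RING protein gene Rnf7 lowest at 4.99 ± 1.67 TPM. The second table had 51.1 ± 12.3 TPM for Eloc and 52.1 ± 8.85 TPM for Cul5, above its level of Socs3.

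Receptors that SOCS proteins restrain were present for interferons, IL-6 family cytokines and the GM-CSF family. Of 15 receptor genes, 11 were at or above 1 TPM throughout (14 in the second table), beside 45.2% of protein-coding genes, with a median of 33.1 TPM. Csf2ra, the GM-CSF receptor alpha chain, was the highest at 164 ± 41.7 TPM, whereas in the second table Csf2rb, the beta chain, was higher, at 196 ± 72.5 TPM against 61.7 ± 19.3 TPM in the gene table. Il6st, which encodes gp130, the docking site of SOCS3, averaged 26.1 ± 7.20 TPM and Il6ra 13.5 ± 0.87 TPM. Ifngr1 and Ifngr2, whose signalling SOCS1 restrains, averaged 33.1 ± 6.50 and 16.2 ± 2.64 TPM, and 57.1 ± 11.4 and 72.5 ± 13.4 TPM in the second table. Ghr, the growth hormone receptor associated with SOCS2, had 3, 1 and 1 counts and Prlr 0 in every library, but the second table gave Ghr 1.52, 1.94 and 2.53 TPM and Prlr 2.96, 3.13 and 2.83 TPM. Il2rg, the common gamma chain, had 89.9, 25.5 and 54.6 TPM, highest in replicate 1 and lowest in replicate 2 as Socs3 was, with a fold of 2.63, the only 1 of the 11 tested to reach 2, beside 6.06% of genes.

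Genes known to respond to IL-10 and STAT3 were mostly present. Of 8 genes 7 reached 1 TPM in every library, beside 45.2% of protein-coding genes, with a median of 24.0 TPM. Etv3, a repressor of the ETS family, was the highest at 147 ± 68.4 TPM and Sbno2, a co-repressor, averaged 83.6 ± 4.31 TPM. Bcl3, a nuclear IκB protein gene, averaged 27.7 ± 8.07 TPM. Il1rn, which encodes the IL-1 receptor antagonist, had 10.1, 2.21 and 3.40 TPM and was high in replicate 1. Nfil3, a bZIP repressor gene, had 2.11, 2.60 and 6.59 TPM and was high in replicate 3, the library in which Cish was high. Il1rn and Nfil3 were the 2 genes of 7 tested with a fold of at least 2, at 3.11 and 3.13, beside 6.06% of genes. Ddit4 was the lowest at 0.27 ± 0.13 TPM.

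The other brakes on JAK and STAT signalling all reached 1 TPM in every library, 11 of 11 beside 45.2% of protein-coding genes, with a median of 23.8 TPM, and 0 of 11 had a fold of 2, beside 6.06%. Ptprc, the phosphatase CD45, was the highest at 616 ± 185 TPM and Ptpn11, the phosphatase SHP2, the lowest at 6.05 ± 0.73 TPM. Ptpn6, the phosphatase SHP1, averaged 95.4 ± 18.0 TPM. Usp18, which restrains the type I interferon receptor, averaged 75.0 ± 44.1 TPM. The mean TPM of Ptpn6 and of Usp18 was above that of Socs3 and Socs1.

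**Figure D4:**
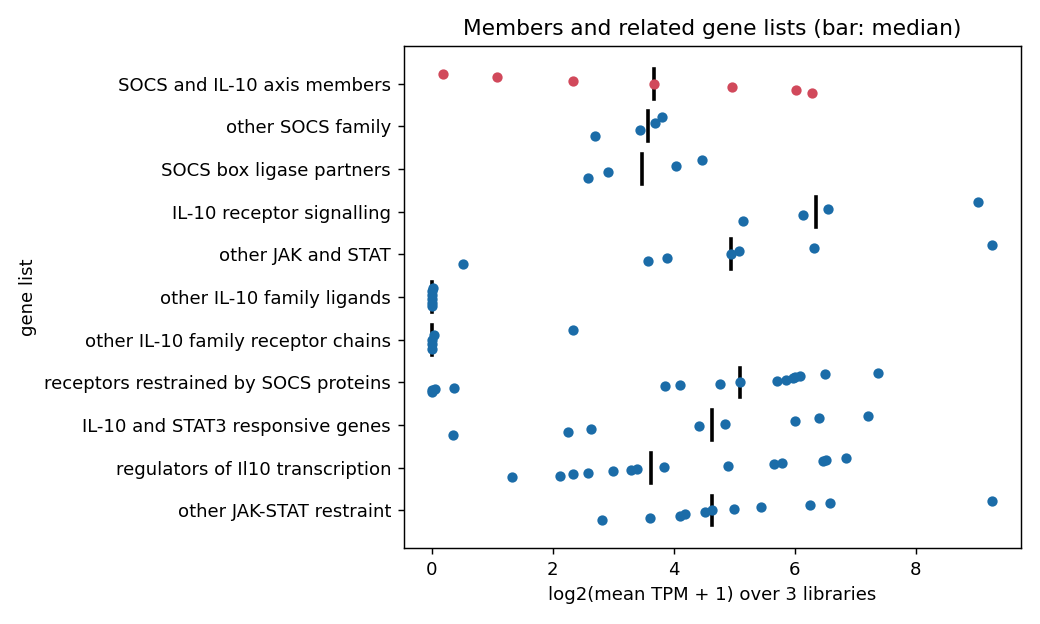
Mean TPM over the 3 libraries, as log2(mean TPM + 1), of the 7 genes (red) and of 10 related gene lists (blue); each point is a gene and the black bar is the list median. The other ligands of the IL-10 family lie at or near 0, while the genes of IL-10 receptor signalling have the highest median.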

How the data were processed

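Per the file headers and the deposited notes, values refer to mm10 and GENCODE M21. The sources used here name no program or aligner. For each of 3 libraries the authors deposited a gene table and a transcript table with expected counts and TPM, and a second transcript table with estimated counts and TPM, summed here per gene. Levels are the authors' TPM. For spread between libraries, expected counts were rounded, scaled with TMM factors (1.03, 0.984 and 0.985; edgeR 4.0.16, R 4.3.3) and logged with a prior count of 2, for 9540 protein-coding genes whose mean count was 50 or more. Entries outside annotated genes, 2.46, 0.484 and 0.327% of counts, stayed out of library sizes. Shifts were set in simulated counts for replicate 1 only, at a fixed dispersion, and no support for the folds is drawn from them. With 1 group no test was run. DESeq2 1.42.0 size factors, other scales and filters, the second table and leaving out each library were alternatives.

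The genes and lists were chosen with earlier results of these data known. Named beside the 7 genes were the highest and lowest gene of each of 10 lists, list genes whose role bears on the 7, the 3 nearest patterns, nearest protein-coding neighbours, overlapping genes and the main transcripts. Some list genes under this rule are not reported here. Intervals and the 3-count floor cover counting error only. Tables were handled in Python 3.11.15 with pandas 2.3.3.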

Additional observations from a re-analysis of the deposited data

How the results depend on the processing

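With the second table the mean level was 3.43 TPM for Socs2 and 99.6 TPM for Il10rb, the ratio of Il10ra to Il10rb was 0.768, and that of Cish to Socs2 was 0.305; the cause was not tested. On log2(TPM + 1) and log2(TPM + 0.1) the fold between libraries was 1.24 and 2.79 for Socs2, against 1.83 with a prior count of 2, 1.20 and 1.20 for Il10ra, and 1.59 and 1.61 for Il10rb. Leaving out each library in turn, the fold ranged from 1.27 to 3.26 for Socs1, 1.30 to 1.83 for Socs2, 1.72 to 4.11 for Socs3, 1.35 to 6.01 for Cish, 1.31 to 2.19 for Il10, 1.04 to 1.11 for Il10ra and 1.07 to 1.32 for Il10rb, a range that can only narrow when 1 of 3 libraries is left out. Of 119 recomputed values 102 moved by less than the replicate spread or, for counts, within 1.5 times, and 17 moved further. Part of the 102 was fixed in advance. For levels and ratios, leaving out 1 of 3 libraries always shifts the mean by less than the SD. For folds, leaving out the middle library changes nothing. The number 102 is therefore not a measure of robustness. The counts of genes highest in replicate 1 (4 to 5) and lowest in replicate 2 (4 to 5) were among the 102. No paired analysis was possible because there was 1 group. With 3 libraries and a starting amount and depth that differ in each, spread between cultures, RNA input, depth and handling cannot be told apart. Few counts limit the precision of Socs2 in the gene table and of Cish in replicates 1 and 2.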
